A study of Mus musculus with 12 samples.

Results

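The 10 genes described here belong to the Nodal and activin pathway and were followed through the transition of mouse embryonic stem cells (ESCs) to epiblast-like cells (EpiLCs), with and without knockdown of 3 enzymes of pyruvate metabolism. The members were taken by gene symbol from the table that pairs transcripts with genes. They were the ligand *Nodal*, its extracellular inhibitors *Lefty1* and *Lefty2*, the coreceptor *Tdgf1* (also called Cripto), the receptors *Acvr1b* and *Acvr2b*, the signal transducers *Smad2* and *Smad3*, and the intracellular inhibitors *Smad7* and *Skil*. All 10 were found among 57180 genes and all 10 were among the 25446 genes tested, which had at least 10 counts summed over the 12 libraries.

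RNA was sequenced in 12 libraries, 3 in each of 4 groups, of E14, a mouse ESC line, that carries a doxycycline-inducible CRISPR interference system. All 4 groups derive from the same chosen clone with a dCas9-based repressor, which guide RNAs bring to a promoter, at the *Tigre* locus. The labels do not state doxycycline treatment for each library, while the paper describes Neg and 3×KD cells of both states as treated with it. Its methods keep all cell lines in low oxygen. The control line (Neg) carries 4 scrambled guides, and the 3×KD line carries guides against *Pcx*, *Me1* and *Me2*, which encode pyruvate carboxylase and the malic enzymes. Each line was made by transfecting that clone with its guides and selecting cells. Other differences between the lines therefore cannot be told apart from the knockdown. ESCs were kept in N2B27 medium with 2i and LIF, and EpiLCs were sampled on day 2 in medium with Activin A, Fgf2 and the Wnt pathway inhibitor XAV939. Activin A is itself a ligand of this pathway and was given to EpiLCs and not to ESCs, so cell state and medium cannot be told apart. The labels do not say that the 3 libraries of a group came from separate cultures, so p-values measure the spread between these libraries only. They also give 1 cell type name to all Neg libraries and another to all 3×KD libraries, and the groups used here follow the sample titles.

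Nodal and activins bind type II receptors such as ACVR2B, which activate type I receptors such as ACVR1B. These phosphorylate SMAD2 and SMAD3, which enter the nucleus with SMAD4 and act on target genes with partners such as FOXH1. Nodal also needs a coreceptor of the Cripto family, and its targets include *Nodal* itself and its inhibitors *Lefty1* and *Lefty2*, so the pathway feeds back on itself. In mouse pluripotent cells the pathway is known for its part in the epiblast after implantation and in the choice of mesoderm and endoderm.

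*Lefty1* and *Lefty2* lie close together on chromosome 1, and their likeness bears on every value given for them. *Lefty1* spans chr1:180762587-180765971 and *Lefty2* chr1:180720635-180726932 of GRCm39, both on the plus strand. Their coding sequences are 1104 bases each in GENCODE vM39 and are identical at 1014 positions (91.8%), with 90 differing. The 100 coding bases with the most differences, positions 39 to 138 counted from the start codon, are shown because reads from here can be assigned to 1 gene, and capitals mark the 30 bases that differ.
Lefty1: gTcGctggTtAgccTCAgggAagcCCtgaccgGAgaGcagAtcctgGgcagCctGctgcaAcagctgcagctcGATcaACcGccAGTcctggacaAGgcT
Lefty2: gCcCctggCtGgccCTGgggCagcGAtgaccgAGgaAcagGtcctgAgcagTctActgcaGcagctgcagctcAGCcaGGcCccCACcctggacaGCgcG
The longest identical run of both is 140 bases. Of all windows of 50 bases in their transcripts, 17.8% of those of *Lefty1* occur in *Lefty2* and 11.4% of those of *Lefty2* occur in *Lefty1*. Salmon, the quantifier used by the authors, divides such reads by an estimate. *Tdgf1* shares 12.01% of its windows with the pseudogene *Tdgf1-ps1*, and the other 7 members share none with a transcript of another gene in GENCODE vM39.

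The 250 bases before the annotated start of *Lefty1*, *Lefty2* and *Tdgf1* are shown because *Lefty1* and *Lefty2* had the largest differences between states and *Tdgf1* was the member called in every comparison. Capitals mark each match to CAGAC, the short sequence that SMAD3 and SMAD4 recognise, or TGTNNATT, the core bound by FOXH1, on either strand.
Lefty1, chr1:180762337-180762586, plus strand: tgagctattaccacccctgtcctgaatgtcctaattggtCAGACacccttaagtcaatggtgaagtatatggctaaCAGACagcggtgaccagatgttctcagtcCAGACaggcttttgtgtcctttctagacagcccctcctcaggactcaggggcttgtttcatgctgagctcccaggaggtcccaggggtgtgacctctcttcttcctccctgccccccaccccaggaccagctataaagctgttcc
Lefty2, chr1:180720385-180720634, plus strand: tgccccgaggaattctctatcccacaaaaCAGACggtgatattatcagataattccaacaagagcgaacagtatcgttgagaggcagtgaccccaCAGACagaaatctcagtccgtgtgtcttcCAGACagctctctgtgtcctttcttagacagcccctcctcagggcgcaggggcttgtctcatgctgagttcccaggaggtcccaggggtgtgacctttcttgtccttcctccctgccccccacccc
Tdgf1, chr9:110775293-110775542, minus strand: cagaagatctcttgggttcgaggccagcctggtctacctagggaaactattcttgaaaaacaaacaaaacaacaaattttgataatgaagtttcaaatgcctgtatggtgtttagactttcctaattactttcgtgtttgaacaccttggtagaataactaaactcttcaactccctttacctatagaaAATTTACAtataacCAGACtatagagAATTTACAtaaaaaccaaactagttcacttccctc
CAGAC stands 211, 174 and 145 bases before the start of *Lefty1* and 221, 155 and 126 bases before that of *Lefty2*. The promoters of the *Lefty* pair were identical at 174 of 220 aligned positions (79.1%). *Tdgf1* holds 1 match to CAGAC, 47 bases before its start, and matches to TGTNNATT at 61 and 35 bases. *Acvr2b* (92 bases), *Smad3* (205 bases) and *Skil* (52 and 97 bases) also hold CAGAC, and *Smad7* holds the palindrome GTCTAGAC at 127 bases, which does not contain CAGAC. These letters are common, since CAGAC was found in 41.3% of 21770 windows of the same length before protein-coding genes, TGTNNATT in 10.7% and GTCTAGAC in 0.239%. *Nodal*, *Acvr1b* and *Smad2* held none of them. The fuller FOXH1 sequence TGTGGATT, found in 0.694% of these windows, stood before no member. A match is a description of the sequence and was not tested for binding.

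Library totals ran from 11221023 to 19652197 counts, and the guides' targets were lower in 3×KD than in Neg libraries without overlap, *Pcx* by 1.14 and 1.05, *Me1* by 0.89 and 1.05 and *Me2* by 0.95 and 0.98 on the log2 scale in ESCs and EpiLCs. Levels are given in counts-per-million (CPM) after scaling by the trimmed mean of M values, and log2 fold changes carry a standard error (SE) and a p-value of edgeR's quasi-likelihood test adjusted over all genes tested. A gene was called where the adjusted p was under 0.01 and the log2 fold change was over 0.58 in size, the limits used in the study's methods. Checked against markers of the labelled states, EpiLCs of both lines had all 10 naive markers called lower and all 6 formative markers called higher against ESCs. The summed level of the naive list was 5181 to 5344 CPM in Neg ESCs, 4029 to 4104 CPM in 3×KD ESCs, 343 to 358 CPM in Neg EpiLCs and 476 to 490 CPM in 3×KD EpiLCs. That of the formative list was 231 to 243, 268 to 274, 2722 to 3055 and 1609 to 1660 CPM in the same order. The formative sum was mostly *Dnmt3a* (106733 counts over all libraries) and *Dnmt3b* (104304), against 15126 for *Pou3f1*, the next. In 3×KD against Neg ESCs 1 formative marker was called higher and 1 lower. In bulk samples fewer cells of a type and less RNA per cell cannot be told apart, which holds for every member below.

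The first question was which pathway genes differ between the control and the 3×KD line within each state, and the second whether that difference depends on the state. In ESCs 1 member was called higher in 3×KD, *Tdgf1*, and 2 were called lower, *Nodal* and *Smad7*. That is 3 of 10, where 15.3% of all genes tested were called in that comparison, 8.5% higher and 6.78% lower. In EpiLCs *Tdgf1* was again called higher and *Lefty1* was called lower, 2 of 10 against 13.2% of all genes (7.88% higher and 5.35% lower). The median log2 fold change of the 10 members was 0.27 in ESCs and 0.03 in EpiLCs, against 0.03 over all genes tested in each state. Both comparisons are between the same lines, but they share no library. The effect of 3×KD itself differed between states at an adjusted p under 0.01 for 5 members, in the positive direction for *Nodal* and *Smad7* and in the negative direction for *Lefty1*, *Tdgf1* and *Skil*, where 10% of all genes did so (4.76% positive and 5.27% negative).

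**Figure D1:**
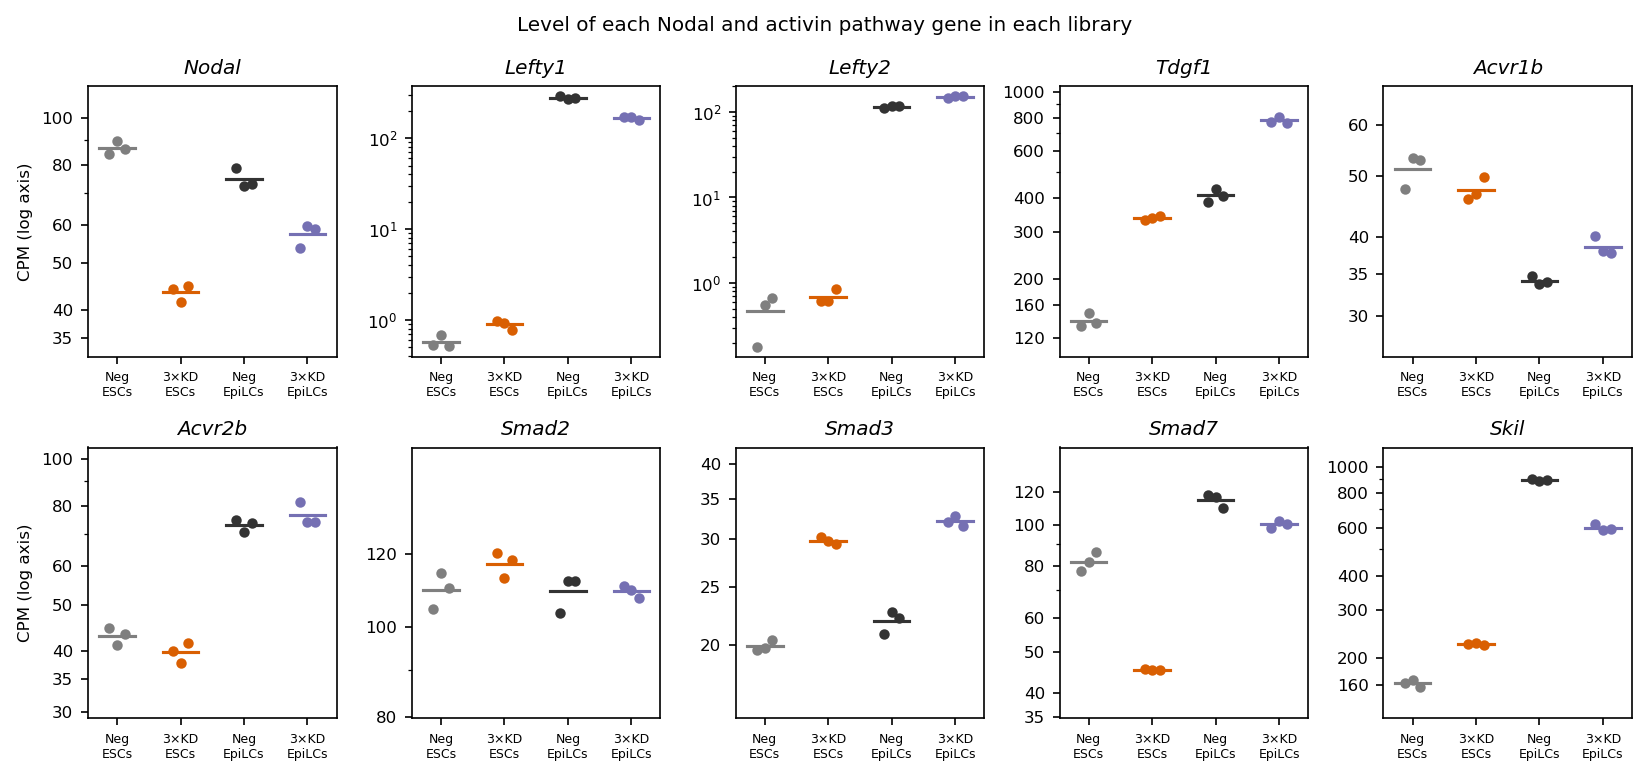
Level of each of the 10 members (CPM, log scale) in each of the 12 libraries, with points for libraries and a bar for the mean of each group of 3. *Lefty1* and *Lefty2* lie under 1 CPM in all ESC libraries and over 100 CPM in all EpiLC libraries, and *Tdgf1* is higher in 3×KD than in Neg libraries in both states.

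*Nodal*, the ligand of the pathway, was lower in the 3×KD line, and more so in ESCs. It had 84.0, 89.4 and 86.2 CPM in the 3 Neg ESC libraries and 44.4, 41.7 and 44.9 CPM in the 3×KD ESC libraries. In EpiLCs it had 78.8, 72.3 and 73.1 CPM in Neg and 53.9, 59.7 and 58.9 CPM in 3×KD libraries. The groups did not overlap in either state, and all 3×KD ESC libraries lay below all 3×KD EpiLC libraries. The log2 fold change was -0.99 ± 0.05 in ESCs, 1.98-fold lower (SE, n = 3 against 3; edgeR adjusted p = 2.19e-10). In EpiLCs it was -0.38 ± 0.05, a difference that passed the test (adjusted p = 1.16e-05) but lay under the limit of size. The effect in EpiLCs minus that in ESCs was 0.61 ± 0.07 (adjusted p = 1.6e-05). Between states, EpiLCs had less *Nodal* than ESCs in the Neg line (-0.21 ± 0.05, adjusted p = 0.00198) and more in the 3×KD line (0.40 ± 0.05, adjusted p = 7.95e-06), both under the limit of size. *Nodal* lies at chr10:61253587-61261117 on the plus strand.

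*Lefty1*, a secreted inhibitor of Nodal, was close to the limit of detection in ESCs and abundant in EpiLCs. Its counts were 6, 10 and 10 in Neg ESCs and 16, 15 and 12 in 3×KD ESCs, or 0.53, 0.69 and 0.51 CPM and 0.98, 0.91 and 0.78 CPM. EpiLC libraries held 290, 273 and 275 CPM in Neg and 172, 170 and 159 CPM in 3×KD libraries. The EpiLC groups lay far apart from each other and every EpiLC library lay above every ESC library. Its log2 fold change of 3×KD was -0.74 ± 0.04 in EpiLCs, 1.67-fold lower (n = 3 against 3, edgeR adjusted p = 3.13e-10). In ESCs it was 0.64 ± 0.36 (adjusted p = 0.139), which at these counts did not pass the test. EpiLCs exceeded ESCs by 8.91 ± 0.28 on the log2 scale in the Neg line (adjusted p = 4.05e-20) and by 7.53 ± 0.22 in the 3×KD line (adjusted p = 2.51e-19). The difference of -1.38 ± 0.36 between the effects in EpiLCs and ESCs passed the test (adjusted p = 0.00132), but it rests on the few ESC counts and did not pass without Neg ESC replicate 3 (-1.27, adjusted p = 0.0156).

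*Lefty2*, the second inhibitor of the pair, did not share the direction of *Lefty1* in EpiLCs. Its counts were 2, 8 and 13 in Neg ESCs and 10, 10 and 13 in 3×KD ESCs, under 1 CPM in each. Its EpiLC values were 111, 117 and 117 CPM in Neg and 144, 155 and 152 CPM in 3×KD libraries. All 3×KD EpiLC libraries were above all Neg EpiLC libraries, whereas for *Lefty1* they were all below. The log2 fold change in EpiLCs was 0.39 ± 0.06 (edgeR adjusted p = 2.57e-05), under the limit of size. In ESCs it was 0.44 ± 0.39 (adjusted p = 0.398), and the difference between states was -0.05 ± 0.39 (adjusted p = 0.968), with a sign that depended on the setting. EpiLCs exceeded ESCs by 7.81 ± 0.30 in the Neg line (adjusted p = 6.2e-18) and by 7.76 ± 0.25 in the 3×KD line (adjusted p = 3.77e-18).

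Since Salmon divides the reads of this pair by an estimate, their counts were also added into 1 row before the fit. The sum was 404, 395 and 392 CPM in Neg EpiLCs and 317, 329 and 316 CPM in 3×KD EpiLCs, and from 0.695 to 1.64 CPM in the ESC libraries. The EpiLC groups did not overlap, with all 3×KD libraries lower. The log2 fold change of the sum was -0.31 ± 0.04 in EpiLCs (edgeR adjusted p = 2.97e-06, under the limit of size) and 0.58 ± 0.26 in ESCs (adjusted p = 0.0614). Between states it was 8.54 ± 0.21 in the Neg line and 7.65 ± 0.17 in the 3×KD line (adjusted p = 2.76e-20 and 5.86e-20). The difference between the effects was -0.89 ± 0.26 (adjusted p = 0.00648). That call was lost, at -0.96 to -0.71, without any of the 3×KD ESC replicates, 3×KD EpiLC replicate 1, Neg ESC replicate 1 or 3 or Neg EpiLC replicate 3, and under 5 other settings.

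The division of the sum between both genes differed between the lines in EpiLCs. *Lefty1* held 72.3%, 70.0% and 70.1% of the summed counts, taken without correction for length, in Neg EpiLCs and 54.4%, 52.3% and 51.1% in 3×KD EpiLCs. The groups lay apart, with means of 70.8% ± 1.26 and 52.6% ± 1.69 (SD, n = 3) and a difference of -18.2 percentage points. The two-sided exact permutation test gave p = 0.1, the smallest value that 3 libraries against 3 allow. In ESCs the share was 58.01% ± 15.9 in Neg and 56.5% ± 7.41 in 3×KD libraries on few counts, with groups that overlapped (exact permutation p = 1).

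**Figure D2:**
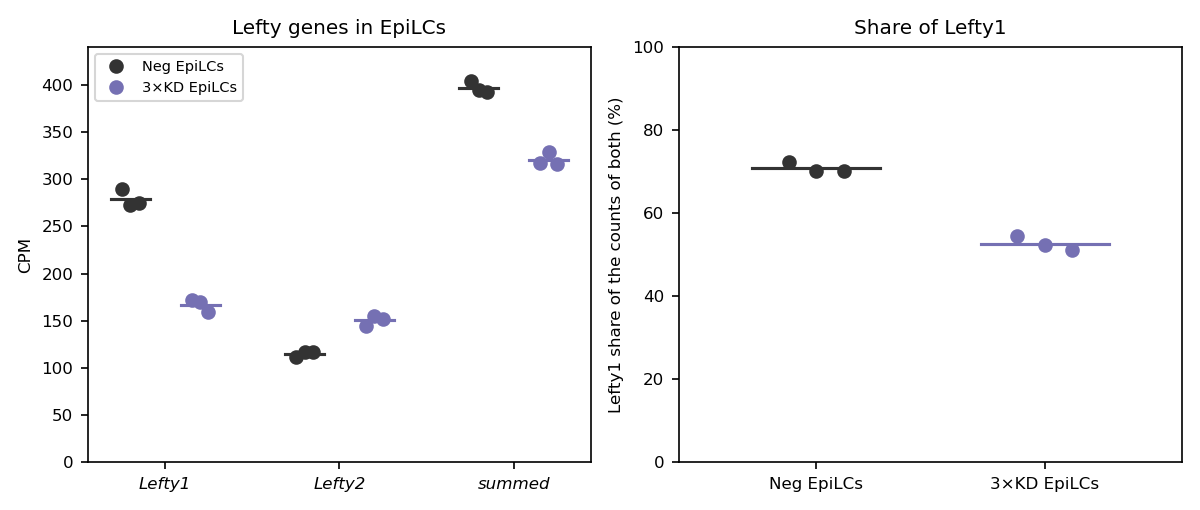
*Lefty1* and *Lefty2* in EpiLCs, with the level of each gene (CPM) and the share of *Lefty1* in their summed counts (percent) for each library. *Lefty1* is lower and *Lefty2* higher in all 3×KD libraries, and the mean share is 70.8% in Neg and 52.6% in 3×KD libraries.

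*Tdgf1*, the coreceptor that Nodal needs, was the member called in all 4 comparisons of groups. It had 133, 150 and 137 CPM in Neg ESCs and 332, 338 and 343 CPM in 3×KD ESCs. The levels in EpiLCs were 387, 433 and 408 CPM in Neg and 772, 807 and 765 CPM in 3×KD libraries. No 2 groups overlapped, and 3×KD ESCs lay just below Neg EpiLCs. On the log2 scale the change of 3×KD was 1.27 ± 0.05 in ESCs, 2.41-fold higher, and 0.93 ± 0.05 in EpiLCs, 1.91-fold higher (n = 3 against 3, edgeR adjusted p = 5.99e-12 and 1.27e-10). The effect was smaller in EpiLCs by 0.34 on the log2 scale (-0.34 ± 0.06, adjusted p = 0.00143). That difference did not pass the test with offsets for transcript length (-0.36, adjusted p = 0.0194) or with scaling by library size alone (-0.27, adjusted p = 0.0228). EpiLCs exceeded ESCs 2.93-fold in the Neg line and 2.31-fold in the 3×KD line (log2 1.55 ± 0.05 and 1.21 ± 0.05, adjusted p = 6.44e-14 and 1.47e-12). *Tdgf1* lies at chr9:110768655-110775292 on the minus strand, and reads from the windows it shares with *Tdgf1-ps1* cannot be told apart.

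The receptors were called between states and not between lines, with a call of *Acvr1b* that depended on the setting. *Acvr1b*, the type I receptor, had 47.7, 53.2 and 52.9 CPM in Neg ESCs and 45.9, 46.7 and 49.7 CPM in 3×KD ESCs. EpiLCs gave 34.8, 33.7 and 33.9 CPM in Neg and 40.1, 38.0 and 37.7 CPM in 3×KD libraries. All EpiLC libraries lay below all ESC libraries, and the lines overlapped in ESCs but not in EpiLCs. In the Neg line it was called lower in EpiLCs (-0.59 ± 0.05, edgeR adjusted p = 8.86e-08), at the edge of the limit of size. The value was between -0.57 and -0.55, and not called, without 3×KD ESC replicate 1, 3×KD EpiLC replicate 3, Neg ESC replicate 2 or 3 or Neg EpiLC replicate 1 or 2. It was not called either with DESeq2 or relative log expression factors (-0.57 each), offsets for transcript length (-0.54) or upper quartile factors (-0.51). In the 3×KD line the difference was -0.30 ± 0.05 (adjusted p = 0.000202). The log2 fold change of 3×KD was -0.12 ± 0.05 in ESCs and 0.18 ± 0.05 in EpiLCs (adjusted p = 0.0959 and 0.0155), and the difference between them was 0.29 ± 0.08 (adjusted p = 0.0127). It passed the threshold at 0.34 without Neg ESC replicate 1, and at 0.30 to 0.37 with relative log expression factors, filterByExpr, library size alone or no filter.

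*Acvr2b*, the type II receptor, had 44.7, 41.2 and 43.5 CPM in Neg ESCs and 40.1, 37.8 and 41.7 CPM in 3×KD ESCs. In EpiLCs the values were 75.0, 70.8 and 74.0 CPM in Neg and 81.4, 74.3 and 74.3 CPM in 3×KD libraries. Every EpiLC library was higher than every ESC library, and the lines overlapped in both states. It was called higher in EpiLCs in the Neg line (0.76 ± 0.05, edgeR adjusted p = 2.32e-09) and in the 3×KD line (0.94 ± 0.05, adjusted p = 1.88e-10). Its log2 fold change of 3×KD was -0.11 ± 0.05 in ESCs and 0.07 ± 0.05 in EpiLCs (adjusted p = 0.112 and 0.345). Thus the type I and type II receptor moved in opposite directions between states in both lines. *Acvr1b* lies at chr15:101071921-101111565 and *Acvr2b* at chr9:119231103-119271213, both on the plus strand.

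*Smad2*, the transducer phosphorylated by ACVR1B, passed the test in no comparison as a gene, although its estimated level moved with the handling of transcript length. It had 105, 114 and 110 CPM in Neg ESCs and 120, 113 and 118 CPM in 3×KD ESCs. In EpiLCs it had 104, 112 and 112 CPM in Neg and 111, 110 and 108 CPM in 3×KD libraries. The lines overlapped in both states, and the states overlapped in the Neg line but not in the 3×KD line, where EpiLCs were lower by a log2 value of -0.10 ± 0.04 that did not pass the test (adjusted p = 0.0682). Its log2 fold change of 3×KD was 0.09 ± 0.04 in ESCs and -0.00094 ± 0.04 in EpiLCs (edgeR adjusted p = 0.0969 and 0.997). With offsets for transcript length both values were lower, at -0.22 in ESCs, where the sign turned (adjusted p = 0.0158), and -0.27 in EpiLCs, past the threshold of the test (adjusted p = 0.00617) but under the limit of size. In TPM (transcripts-per-million, a level per length) *Smad2* ranged from 23.6 to 32.8 in Neg and from 19.5 to 23.3 in 3×KD ESCs, and from 28.2 to 33.1 in Neg and from 19.8 to 24.6 in 3×KD EpiLCs, lower in 3×KD without overlap in both states.

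The transcripts of *Smad2* did differ in their estimated shares. A transcript of 2410 bases held a mean of 37.4% of the summed TPM of the gene in Neg ESCs, with a range of 33.5% to 41.9%, and 21.2% (19.1% to 23.6%) in 3×KD ESCs. In EpiLCs it held 42.3% (33.9% to 47.6%) in Neg and 30.1% (27.9% to 31.4%) in 3×KD libraries. A transcript of 8089 bases held 16.2% (15.2% to 17.2%) in Neg ESCs and 28.3% (26.8% to 30.9%) in 3×KD ESCs, and 18.01% (16.8% to 19.6%) and 27.3% (24.8% to 30.4%) in EpiLCs. The first transcript thus held less and the second more in 3×KD than in Neg libraries, with no overlap in either state. Both lengths are those of the deposited quantification, and GENCODE vM39 gives the first transcript 9225 bases. Which of them is longer therefore depends on the annotation. The TPM of *Smad2* and its values with offsets for transcript length rest on the deposited lengths. These shares are Salmon's estimates of how reads divide among overlapping transcripts, and no test was run on them. *Smad2* lies on the plus strand of chromosome 18.

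*Smad3*, the other transducer, was higher in CPM in all 3×KD libraries. It had 19.7, 19.8 and 20.4 CPM in Neg ESCs and 30.2, 29.8 and 29.4 CPM in 3×KD ESCs. EpiLC libraries held 20.9, 22.8 and 22.2 CPM in Neg and 32.0, 32.7 and 31.5 CPM in 3×KD libraries. The lines did not overlap in either state, while the states lay close within each line. In TPM the lines did not overlap in ESCs (2.29 to 3.08 in Neg and 4.29 to 4.66 in 3×KD). They did overlap in EpiLCs (3.99 to 5.47 TPM in Neg and 4.86 to 5.85 TPM in 3×KD). Its log2 fold change was 0.57 ± 0.06 in ESCs and 0.55 ± 0.06 in EpiLCs (edgeR adjusted p = 2.8e-07 and 4.08e-07), just under the limit of size in both. In ESCs it lay past the limit at 0.58 to 0.60 without 3×KD ESC replicate 1 or 3, 3×KD EpiLC replicate 3, Neg ESC replicate 3 or Neg EpiLC replicate 1 or 2. It also passed the limit there with offsets for transcript length (0.83, adjusted p = 0.00341), upper quartile factors (0.60) and no filter on low counts (0.58). In EpiLCs it lay past the limit at 0.58 without Neg EpiLC replicate 2, with no filter (0.58) and with library size alone (0.61). The difference between the effects was -0.03 ± 0.08 (adjusted p = 0.923), or -0.42 with offsets for transcript length (adjusted p = 0.386). *Smad3* lies at chr9:63554049-63665476 on the minus strand, and its coding sequence is identical to that of *Smad2* at 77.1% of 1275 aligned positions.

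**Figure D3:**
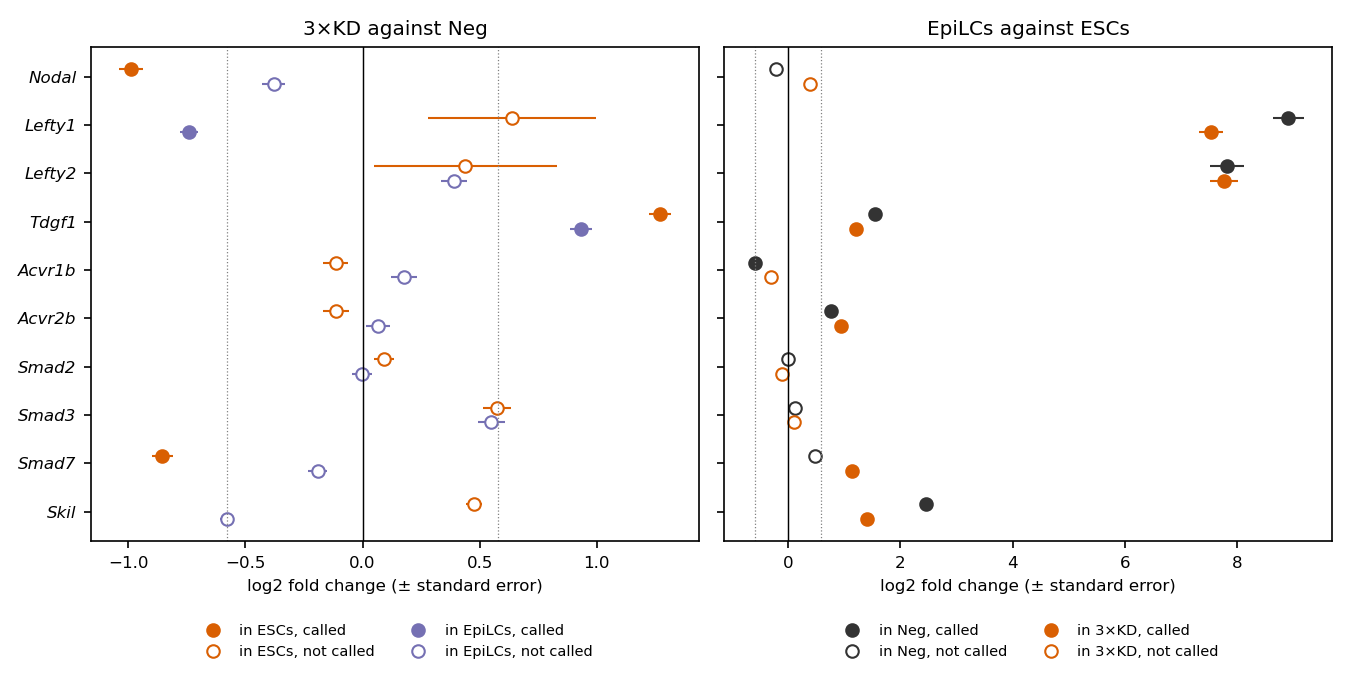
Log2 fold change of each member with its SE (3 libraries a group), with the limit of size drawn as lines. The left panel shows 3×KD against Neg in ESCs and in EpiLCs, and the right panel EpiLCs against ESCs in each line. In the left panel *Lefty1* and *Skil* lie above 0 in ESCs and below 0 in EpiLCs, and *Nodal* and *Smad7* lie further below 0 in ESCs than in EpiLCs. The ESC values of *Lefty1* and *Lefty2* have the widest errors there.

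*Smad7*, which blocks the type I receptor, was lower in 3×KD ESCs. It had 77.8, 81.7 and 86.1 CPM in Neg ESCs and 45.5, 45.4 and 45.2 CPM in 3×KD ESCs. Its EpiLC values were 118, 116 and 110 CPM in Neg and 98.2, 102 and 101 CPM in 3×KD libraries. The lines lay far apart in ESCs and close, without overlap, in EpiLCs. On the log2 scale the change was -0.85 ± 0.04 in ESCs, 1.81-fold lower (n = 3 against 3, edgeR adjusted p = 1.95e-10), and -0.19 ± 0.04 in EpiLCs (adjusted p = 0.00119, under the limit of size). The difference of 0.66 ± 0.06 had an adjusted p of 1.04e-06, but with offsets for transcript length it was 0.51 (adjusted p = 0.239). EpiLCs exceeded ESCs 2.21-fold in the 3×KD line (log2 1.15 ± 0.04, adjusted p = 1.5e-12). In the Neg line the difference was 0.48 ± 0.04 (adjusted p = 4.47e-08), under the limit of size, which it passed with the same offsets (0.66). *Smad7* lies on the plus strand of chromosome 18, and its start is 1552 kb from that of *Me2*.

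*Skil* encodes SnoN, a nuclear repressor of SMAD target genes that is itself a target of the pathway. It had 163, 167 and 157 CPM in Neg ESCs and 226, 227 and 224 CPM in 3×KD ESCs. The levels in EpiLCs were 903, 889 and 893 CPM in Neg and 618, 586 and 594 CPM in 3×KD libraries. All 3×KD libraries were above Neg in ESCs and below Neg in EpiLCs. The log2 fold change was 0.48 ± 0.03 in ESCs and -0.58 ± 0.03 in EpiLCs (edgeR adjusted p = 6.27e-09 and 4.7e-10), neither past the limit of size. The value in EpiLCs was at the edge of that limit and passed it at -0.60 without 3×KD EpiLC replicate 1, and at -0.59 with offsets for transcript length or only the groups compared. The difference between the effects was -1.05 ± 0.05, or 2.08-fold (adjusted p = 3.21e-10). EpiLCs exceeded ESCs 5.52-fold in the Neg line and 2.66-fold in the 3×KD line (log2 2.46 ± 0.03 and 1.41 ± 0.03, adjusted p = 2.51e-18 and 3.11e-15). *Skil* lies at chr3:31148816-31176740 on the plus strand.

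Between EpiLCs and ESCs, 6 of 10 members were called in the Neg line, where 20.8% of all genes were, 9.78% higher and 11% lower. *Lefty1*, *Lefty2*, *Tdgf1*, *Acvr2b* and *Skil* were higher and *Acvr1b* was lower. In the 3×KD line 6 of 10 were called, all higher, where 18.7% of all genes were called, 9.42% higher and 9.32% lower. *Smad7* was called there and *Acvr1b* was not, a pattern that depended on the setting, since with offsets for transcript length *Smad7* was called in the Neg line too (0.66, adjusted p = 0.00653) and *Acvr1b* was not (-0.54). The median log2 fold change of the members was 0.62 in the Neg line and 1.04 in the 3×KD line, against 0.01 over all genes tested in both. These comparisons use the same libraries as those between lines, and each member's values were given above.

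Levels can be ordered between genes only per length, and for this the TPM of the deposited files were used. In Neg ESCs the mean level was highest for *Tdgf1* (54.0 TPM), followed by *Nodal* (29.5 TPM) and *Smad2* (27.3 TPM), which overlapped. *Skil* (20.04 TPM) and *Smad7* (18.6 TPM) overlapped too, and *Acvr2b* (13.3 TPM), *Acvr1b* (7.74 TPM), *Smad3* (2.75 TPM), *Lefty1* (0.265 TPM) and *Lefty2* (0.136 TPM) followed. In 3×KD ESCs *Nodal*, at 13.7 TPM, stood below *Tdgf1* (119 TPM), *Skil* (27.4 TPM) and *Smad2* (21.4 TPM). The ligand thus stood above *Skil* in Neg ESCs and below it in 3×KD ESCs. In Neg EpiLCs *Tdgf1* (188 TPM) and *Lefty1* (162 TPM) overlapped at the top, above *Skil* (129 TPM). *Lefty2* (40.2 TPM), *Smad7* (34.0 TPM), *Smad2* (30.7 TPM) and *Nodal* (30.3 TPM) followed, each overlapping the next. In 3×KD EpiLCs *Tdgf1* (317 TPM) stood clear of *Lefty1* (85.5 TPM) and *Skil* (76.6 TPM), which overlapped, and *Lefty2* was at 50.3 TPM. *Nodal* (20.6 TPM) stood with *Smad7* (26.1 TPM), *Acvr2b* (23.0 TPM) and *Smad2* (22.7 TPM), each overlapping the next. *Acvr1b* and *Smad3* were lowest in EpiLCs of both lines.

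Another 40 genes of the pathway were listed by role, and 38 of them were tested. *Cer1*, an extracellular Nodal inhibitor, and the coreceptor *Cfc1* had 4 counts each over all libraries and were not tested. For 3×KD against Neg, 7 of the 38 were called in ESCs, 5 higher and 2 lower, and 7 in EpiLCs, 4 higher and 3 lower, where 15.3% and 13.2% of all genes were called. Between EpiLCs and ESCs, 5 were called higher and 7 lower in the Neg line, and 2 higher and 11 lower in the 3×KD line, where 20.8% and 18.7% of all genes were called. The effect of 3×KD differed between states for 8, in the positive direction for 2 and in the negative for 6, against 10% of all genes. The median log2 fold change of the list was -0.05 and 0.02 for 3×KD in ESCs and EpiLCs.

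**Figure D4:**
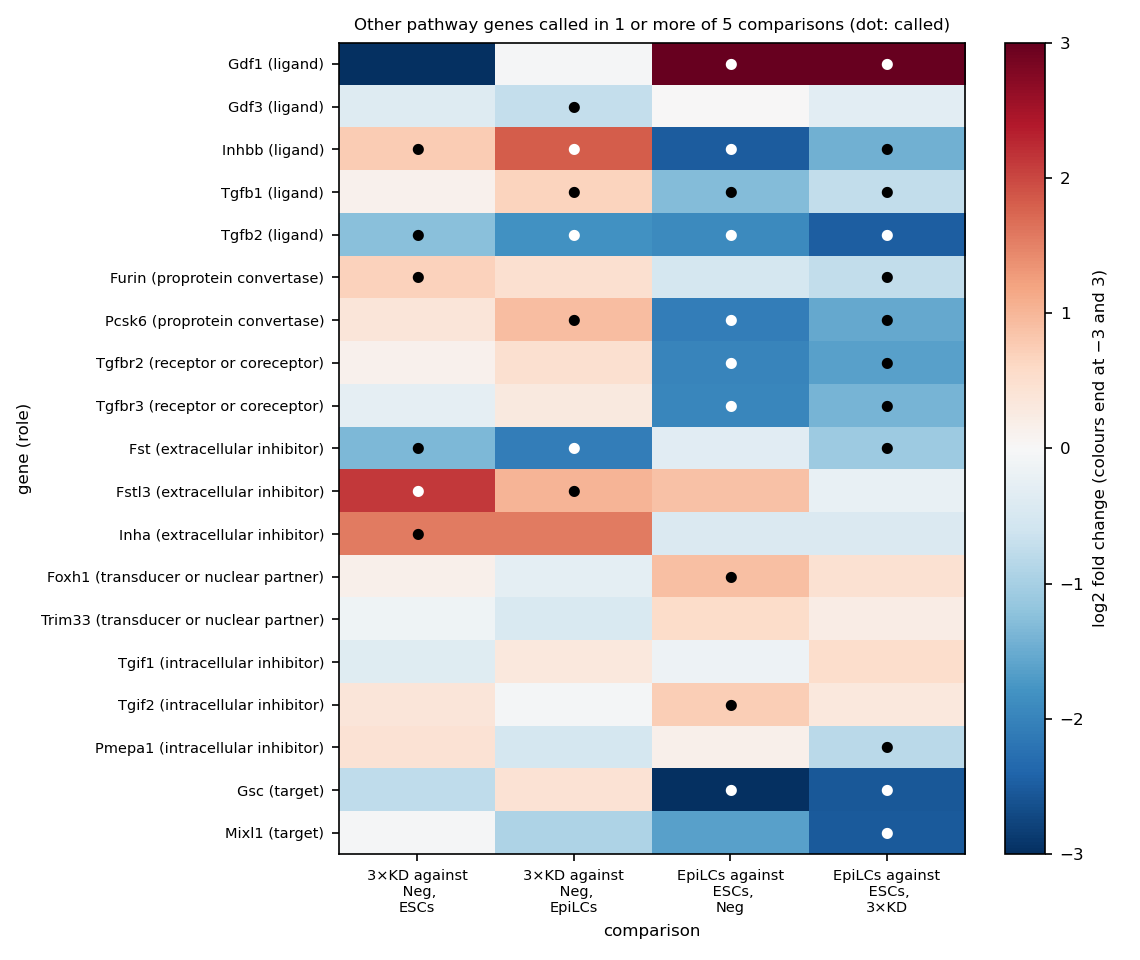
Log2 fold change of 19 other pathway genes that were called at least once, by role, for 3×KD against Neg and for EpiLCs against ESCs, with colours ending at -3 and 3 and dots on called values. *Fst* is lower and *Fstl3* higher in 3×KD than in Neg libraries of both states, and the value of *Gdf1* in the 3×KD line rests on ESC libraries with a count of 0.

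Among the ligands, *Inhbb*, which encodes the βB subunit of activin, was higher in the 3×KD line. It had 5.67, 6.61 and 5.30 CPM in Neg ESCs and 9.89, 9.57 and 10.5 CPM in 3×KD ESCs, and 0.431, 1.34 and 1.33 CPM and 4.28, 2.88 and 3.75 CPM in EpiLCs. The lines did not overlap in either state, and the log2 fold change was 0.77 ± 0.20 and 1.82 ± 0.27 (edgeR adjusted p = 0.00458 and 3.53e-05). The call in ESCs was lost, at 0.69 to 0.80, without any of the 3×KD ESC replicates or without Neg ESC replicate 1 or 3. *Gdf3*, a ligand that can also act through Cripto, was called lower in 3×KD EpiLCs (-0.72 ± 0.05, adjusted p = 1.45e-08), with 56.4, 50.2 and 55.8 CPM in Neg and 32.1, 32.0 and 34.2 CPM in 3×KD libraries. *Gdf3* overlaps *Dppa3* on the other strand.

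*Tgfb2* was called lower in 3×KD libraries of both states on few reads, with 29, 46 and 41 counts in Neg ESCs, 16, 15 and 21 in 3×KD ESCs, 9, 15 and 8 in Neg EpiLCs and 3, 5 and 1 in 3×KD EpiLCs. Its log2 fold change was -1.25 ± 0.33 in ESCs and -1.82 ± 0.54 in EpiLCs (edgeR adjusted p = 0.00536 and 0.00724). The call in ESCs was lost, at -1.26 to -1.08, without 3×KD ESC replicate 1 or 2 or Neg ESC replicate 1 or 2, and its value was -0.38 with offsets for transcript length. The call in EpiLCs was lost, at -1.95 to -1.41, without 3×KD EpiLC replicate 1 or 3, Neg ESC replicate 1 or Neg EpiLC replicate 1 or 2. *Gdf1*, a partner of Nodal, had 0, 0 and 10 counts in Neg ESCs, a count of 0 in each 3×KD ESC library, 67, 57 and 52 in Neg EpiLCs and 64, 47 and 65 in 3×KD EpiLCs. It was called higher in EpiLCs of both lines (adjusted p = 1.5e-05 and 1.75e-06), and in the 3×KD line it was at least 19.6-fold higher against a floor of 3 counts per library. It overlaps *Cers1* on the same strand, so its reads are uncertain, and its log2 fold change in the Neg line was 8.85 without Neg ESC replicate 3 against 4.08 with it.

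The extracellular inhibitors differed in direction. *Fst*, follistatin, which binds activins, had 7.27, 5.85 and 6.63 CPM in Neg ESCs and 2.27, 2.74 and 2.74 CPM in 3×KD ESCs, and 5.91, 4.30 and 5.25 CPM and 1.18, 1.15 and 1.31 CPM in EpiLCs. All 3×KD libraries were lower, with log2 fold changes of -1.34 ± 0.16 and -2.08 ± 0.21 (edgeR adjusted p = 3.41e-06 and 9.2e-08). *Fstl3*, a follistatin relative that also binds activins, was called higher in 3×KD ESCs (2.11 ± 0.29, adjusted p = 4.41e-06), with 0.798, 0.688 and 0.561 CPM in Neg and 2.83, 3.17 and 2.74 CPM in 3×KD libraries. In EpiLCs its value was 1.01 ± 0.24 (adjusted p = 0.00253), and that call was lost, at 0.86 to 0.98, without 3×KD EpiLC replicate 1 or Neg EpiLC replicate 1 or 2. *Inha*, the inhibin α subunit, had a value of 1.56 ± 0.44 in ESCs (adjusted p = 0.00843), on 2 to 22 counts per library. In EpiLCs its value was also 1.56 but was not called. The call in ESCs held without 3×KD EpiLC replicate 3, Neg ESC replicate 2 or Neg EpiLC replicate 1 or 2. It was lost, at 1.28 to 1.69, without any one of the other 8 libraries.

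Of the convertases that process Nodal, *Furin* was called higher in 3×KD ESCs (0.69 ± 0.06, edgeR adjusted p = 3.75e-08) and *Pcsk6* in 3×KD EpiLCs (0.93 ± 0.06, adjusted p = 1.77e-10). Against ESCs, EpiLCs of both lines had lower *Pcsk6*, by 2.08 and 1.53 on the log2 scale. *Foxh1*, the nuclear partner of SMAD2, was called higher in EpiLCs of the Neg line (0.91 ± 0.06, adjusted p = 2.08e-09). Of the 6 listed targets of the pathway, 2 were called higher and 1 lower in EpiLCs of the Neg line. In EpiLCs of the 3×KD line 1 was called higher and 2 lower. Those called lower were *Gsc* in both lines (-3.74 and -2.54) and *Mixl1* in the 3×KD line (-2.51 ± 0.56). Both rest on few reads, with 2 to 63 counts per library for *Gsc* and 1 to 24 for *Mixl1*.

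*Smad4*, the partner shared by SMAD2 and SMAD3, starts 112 kb from *Me2*, a guide target, and was lower in the 3×KD line by a log2 value of -0.29 ± 0.04 in ESCs and of -0.32 ± 0.04 in EpiLCs (edgeR adjusted p = 4.22e-06 and 1.28e-06), under the limit of size. It had 131, 138 and 133 CPM in Neg ESCs and 107, 111 and 112 CPM in 3×KD ESCs. EpiLCs gave 148, 153 and 150 CPM in Neg and 124, 121 and 116 CPM in 3×KD libraries. All 3×KD libraries were below all Neg libraries within a state. Of other genes near *Me2*, *Elac1* at 61.3 kb had 0.57 and 0.41, and *Mex3c* at 243 kb had -0.47 and -0.36. The part that the nearby guide target had in the level of *Smad4* was not tested.

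Markers of other cell types moved with some of these groups. The summed level of primitive endoderm markers was 20.1 to 23.2 CPM in Neg ESCs, 27.6 to 30.04 CPM in 3×KD ESCs, 23.3 to 27.8 CPM in Neg EpiLCs and 17.6 to 19.5 CPM in 3×KD EpiLCs. That of neuroectoderm markers was 7.49 to 9.40, 5.98 to 8.36, 68.3 to 70.9 and 23.3 to 27.6 CPM, and that of trophoblast markers 40.6 to 43.8, 45.1 to 52.2, 3.54 to 5.36 and 8.37 to 9.97 CPM. The neuroectoderm sum was mostly *Sox1*, with 4719 counts over all libraries against 373 for *Pax6*. The trophoblast sum was mostly *Tfap2c*, with 4619 counts over all libraries against 194 for *Cdx2* and 15 for *Elf5*. Of these 3 markers 1 was called lower in 3×KD ESCs, although the sum was higher there. Mesoderm markers summed to between 0.355 and 1.46 CPM in every library, and *Sox7* was at 0 in 1 library and *Elf5* in 3 libraries. Of the 10 naive markers, 5 were called higher and 1 lower in 3×KD EpiLCs against Neg EpiLCs, and 5 of the 6 formative markers were called lower there, beside the lower *Lefty1* and the higher *Tdgf1*. In ESCs 5 naive markers were called lower in 3×KD, beside the lower *Nodal* and *Smad7*. Their part in the members' values was not tested.

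Among 15031 genes whose mean reached 1 CPM, those with the group pattern most like that of *Nodal* were *Tpcn2*, *Sirt1* and *Rinl*, with root mean square differences of 0.0236, 0.0348 and 0.0365 in log2 CPM over the 4 centred group means. For *Lefty1* the nearest gene was *Lefty2* (0.440), followed by *Car4* (1.09) and *Spry4* (1.096). For *Lefty2* they were *Lefty1*, *Car4* (0.734) and *Slc7a7* (0.907). For *Tdgf1* they were *P3h2* (0.0722), *Tdgf1-ps1* (0.0808) and *Nsmf* (0.0866). *Tdgf1* shares windows with *Tdgf1-ps1*, as *Lefty1* does with *Lefty2*, and Salmon divides such reads by an estimate. The likeness within these pairs is therefore not independent of that division. The patterns have 4 points a gene and are descriptions. The member nearest to *Nodal* was *Smad7* (0.37), only at rank 4543 of the 15031 genes. For *Tdgf1* the nearest member was *Acvr2b* (0.636), at rank 1544.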

How the data were processed

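RNA from 12 libraries was sequenced from rRNA-depleted, directional libraries, single-end, as the protocol describes, although a label names polyA RNA. The authors trimmed reads with Trim Galore 0.6.7 and used STAR 2.7.9a and Salmon 1.10.1, per the submitters' processing notes, and deposited per library a table of transcripts with expected counts (NumReads) and TPM. How Salmon divides reads among alike transcripts can move counts between paralogs and isoforms. The members, gene lists and tests were chosen with earlier results of these data known. The members are 10 symbols. Of the other pathway genes, those called at least once could be named, with values for up to 3 of the largest per comparison and direction.

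The estimated counts of a gene's transcripts were added and rounded, and TPM, which the authors computed, were added likewise to order levels. Genes whose counts reached 10 over all libraries entered a fit with edgeR 4.0.16 in R 4.3.3 (TMM factors, quasi-likelihood test, 1 fit of 4 groups and all 12 libraries). P-values were adjusted by Benjamini-Hochberg over 25446 genes. Calls took an adjusted p under 0.01 and a log2 fold change over 0.58 in size, and for the difference between states the adjusted p alone. The SE is the larger of the fit's value and the counting error. Intervals and tests cover the spread between libraries, and totals of 11221023 to 19652197 counts limit *Lefty1* and *Lefty2* in ESCs. Replicates differed beyond sampling noise in every pair. Sequences came from GRCm39 with GENCODE vM39, which matched 10 of 10 members and 99.0% of all genes by identifier. The authors' own comparisons were not used, and some pathway and marker genes that were counted are not reported by name here. Alternatives were DESeq2 1.42.0, other scalings and filters, offsets for transcript length, other thresholds, only the groups compared, a replicate block and leaving out each library.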

Additional observations from a re-analysis of the deposited data

Results flagged for a closer look

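The effect of 3×KD differed between EpiLCs and ESCs at an adjusted p under 0.01 (edgeR's quasi-likelihood test of the difference itself, 3 libraries a group) for 5 members and 8 other pathway genes, where 10% of all genes tested did so. The difference, as the log2 fold change in EpiLCs minus that in ESCs, was 0.61 for *Nodal* and 0.66 for *Smad7*, both less reduced in EpiLCs. It was -1.38 for *Lefty1* and -1.05 for *Skil*, both higher in 3×KD ESCs and lower in 3×KD EpiLCs by value, though the ESC value of *Lefty1* did not pass the test. It was -0.34 for *Tdgf1*, higher in both states and less so in EpiLCs.

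Values are given for 7 of these 8. It was 0.68 for *Tgif1* and -0.42 for *Tgif2*, which encode related repressors of SMAD targets. It was 0.56 for the convertase *Pcsk6* and -0.97 for *Pmepa1*, an inhibitor induced by the pathway. It was -0.45 for *Foxh1*, -0.33 for *Trim33* and -0.33 for *Gdf3*. Without 3×KD ESC replicate 3, 3×KD EpiLC replicate 1 or 2, Neg ESC replicate 1 or 3 or Neg EpiLC replicate 3, the value of *Gdf3* (-0.32 to -0.31) did not pass the test. With offsets for transcript length that of *Pcsk6* was 0.22, and those of *Pcsk6*, *Foxh1*, *Tgif2*, *Trim33*, *Gdf3*, *Smad7* and *Tdgf1* did not pass the test. No explanation of these differences was tested.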

How the results depend on the processing

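Of 1090 values of members under alternatives, 1018 kept their direction and side of the threshold, 34 passed it anew, 14 no longer passed it and 24 changed sign. Signs changed for values near 0. The *Lefty2* difference between states was 0.022 with library size alone, 0.041 with transcript-length offsets and -0.43 to 0.23 with each replicate left out. *Smad2* for 3×KD in ESCs was -0.22 with offsets. In EpiLCs it was 0.0069 with DESeq2, 0.0067 with relative log expression factors, 0.012 with filterByExpr, 0.058 with library size alone, 0.031 with no filter, 0.011 with upper quartile factors, -0.27 with offsets and -0.035 to 0.026 with each replicate left out. *Smad2* for EpiLCs against ESCs in the Neg line was 0.012 with DESeq2, 0.013 with relative log expression factors, 0.077 with upper quartile factors and -0.038 to 0.070 with each replicate left out. The *Smad3* difference was 0.047 with library size alone.

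With an adjusted p under 0.05 and no limit of size, 5 members were called in ESCs and 8 in EpiLCs, and 21, 21, 27 and 29 genes of the pathway list in ESCs, EpiLCs, Neg and 3×KD, where 39.9%, 38.1%, 44.1% and 42.6% of all genes were. With offsets 3 members and 2 list genes differed between states, where 727 of all genes did so against 2551. DESeq2 called 4 list genes in EpiLCs. With each replicate left out the list counts were 4 to 7 in ESCs and 4 to 7 in EpiLCs. The *Lefty* sum in EpiLCs, -0.31, was called with the loose threshold, and its difference between states was not called with DESeq2 (-0.86), relative log expression factors (-0.85), library size alone (-0.79), no filter (-0.84) or offsets (-0.90), and was -1.01 to -0.71 with each replicate left out, called in 5 of 12 such fits. With library size alone the difference between states was positive for 1522 and negative for 824 genes, against 1211 and 1340.

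Replicate numbers did not pair samples (correlations of same-numbered deviations -0.13 to 0.10). With the replicate number as a block the counts of members called were 3, 2, 6, 6 and 5, as without it, those of the list 6, 6, 12, 14 and 8, and the difference of the *Lefty* sum -0.89. *Inha* in ESCs (adjusted p = 0.0128) and *Tgfb1* in EpiLCs (adjusted p = 0.0158) lost their call under it. Depth limits *Lefty1* and *Lefty2* in ESCs, *Tgfb2*, *Gdf1*, *Gsc*, *Mixl1* and *Inha*.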
